A study of Mus musculus with 3 samples.

Results

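The imprinted genes described here are a list of 45 genes, known imprinted genes of the mouse and close neighbours of them. They were found by their GENCODE M21 gene names among the 55401 gene identifiers of the deposited count files, and each of the 45 matched 1 identifier. They lie in 14 groups, of which 13 are clusters and the last holds 6 genes that stand alone. Bulk RNA-Seq of 3 libraries (replicates 1, 2 and 3, numbered in deposition order) was used. All came from maxillary processes dissected at E10.5 (the embryonic day) from *Wnt1cre; Rosa26Dlx2/-* mice, called OE for *Dlx2* overexpression. In this cross, Cre driven by *Wnt1* removes a stop cassette from a *Rosa26* CAG-LSL-Dlx2-3xFlag allele, so that *Dlx2* is overexpressed in neural crest cells, while cells of other origin in the same dissection keep the cassette. The libraries were prepared as independent RNA samples, and whether each came from 1 embryo or a pool of embryos, and which litters they came from, is not stated. The libraries of wild-type embryos were not analysed here, so every value below describes OE tissue and no value measures an effect of *Dlx2*.

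Genomic imprinting is the expression of a gene mainly from the copy inherited from 1 parent. It depends on DNA methylation that is laid down differently in egg and sperm at imprinting control regions and is kept through the divisions of the embryo. Imprinted genes tend to lie in clusters in which a long noncoding RNA is made from 1 parental copy and protein-coding neighbours from the other. Many of them act on the growth of the fetus and the placenta, and several are highly expressed in embryonic mesenchyme. The counts do not separate the parental copies, so imprinting itself was not measured. In bulk tissue, fewer cells that express a gene and less RNA per cell cannot be told apart.

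Several of these transcripts carry microRNAs, and the sequences below show which ones the values of the host transcripts bear on. Mature sequences are from RefSeq, with the seed (bases 2 to 8) in capitals. *H19* carries Mir675 in an exon and *Mest* carries Mir335 in an intron. On the strand opposite to the *Rtl1* exon lie 6 miRNA genes, with 11 mature miRNAs, among them miR-127 and miR-433. *Mirg* holds 14 miRNA genes, and miR-453 and miR-496a-5p within it have the same seed.
miR-675-5p (*H19*): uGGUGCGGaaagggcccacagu
miR-675-3p (*H19*): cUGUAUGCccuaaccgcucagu
miR-335-5p (*Mest*): uCAAGAGCaauaacgaaaaaugu
miR-127-3p (opposite *Rtl1*): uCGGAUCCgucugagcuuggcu
miR-433-3p (opposite *Rtl1*): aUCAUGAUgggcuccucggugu
miR-453 (*Mirg*): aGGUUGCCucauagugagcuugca
miR-496a-5p (*Mirg*): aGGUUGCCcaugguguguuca

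From the start of *Dlk1* to the end of *Dio3*, over 828275 bases, the RefSeq table held 61 miRNA genes with 113 different mature miRNAs. In this stretch 9 seeds belonged to more than 1 mature miRNA, and these covered 18 of the 113. The libraries were made from poly-T selected RNA, so the counts below are of host transcripts and not of mature miRNAs.

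Promoter sequences are shown for 4 genes that take a large part of the counts or that share a promoter region. Each window runs from 250 bases before to 50 bases after an annotated start (RefSeq, GRCm38.p6), and CG dinucleotides, the sites of DNA methylation, are in capitals. *Peg3* and *Usp29* start back to back: their windows, on opposite strands, overlapped by 263 bases, so only that of *Peg3* is printed.
*Peg3*, chr7:6730370-6730669, minus strand: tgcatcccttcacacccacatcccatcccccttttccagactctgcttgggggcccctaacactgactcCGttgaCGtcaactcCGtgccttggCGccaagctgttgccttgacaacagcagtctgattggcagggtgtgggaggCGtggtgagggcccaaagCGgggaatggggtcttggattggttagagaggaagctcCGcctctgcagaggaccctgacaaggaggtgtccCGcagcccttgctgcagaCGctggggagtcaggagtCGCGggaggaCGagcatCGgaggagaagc
*Mest*, chr6:30737800-30738099, plus strand: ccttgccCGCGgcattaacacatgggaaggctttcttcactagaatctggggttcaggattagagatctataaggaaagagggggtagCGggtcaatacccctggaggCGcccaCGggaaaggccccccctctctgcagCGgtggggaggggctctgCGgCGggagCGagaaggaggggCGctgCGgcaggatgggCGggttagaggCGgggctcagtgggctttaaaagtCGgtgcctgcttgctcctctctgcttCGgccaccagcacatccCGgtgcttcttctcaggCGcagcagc
*Grb10*, chr11:12037371-12037670, minus strand: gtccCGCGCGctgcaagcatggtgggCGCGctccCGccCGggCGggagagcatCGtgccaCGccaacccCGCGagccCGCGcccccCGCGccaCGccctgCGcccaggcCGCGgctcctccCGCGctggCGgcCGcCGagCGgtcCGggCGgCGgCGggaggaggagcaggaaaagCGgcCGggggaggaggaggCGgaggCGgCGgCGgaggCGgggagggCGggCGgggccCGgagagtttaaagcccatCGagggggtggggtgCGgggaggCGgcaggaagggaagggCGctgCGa
*Nnat*, chr2:157559828-157560127, plus strand: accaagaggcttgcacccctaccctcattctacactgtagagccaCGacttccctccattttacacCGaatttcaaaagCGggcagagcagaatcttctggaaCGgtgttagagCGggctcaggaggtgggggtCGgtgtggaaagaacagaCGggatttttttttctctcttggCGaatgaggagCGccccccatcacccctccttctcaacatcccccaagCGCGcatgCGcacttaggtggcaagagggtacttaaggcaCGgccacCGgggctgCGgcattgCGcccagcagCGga

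The windows above held 13 CG dinucleotides for *Peg3*, 17 for *Mest*, 45 for *Grb10* and 17 for *Nnat*. Of the 45 imprinted genes, 35 had a window in the table. Chromosome 18, and with it *Impact*, was left out for the imprinted genes but not for all genes. Taking for each gene the window richest in CG, the median over these 35 genes was 17.0, against 8.0 over all 27025 genes with a window. The imprinted genes had more windows per gene to choose from, 52 for 35 genes against 32851 for 27025. The letters TAATTA, which read the same on both strands and form the core recognised by homeodomain proteins, occurred in 1 of 52 windows of the imprinted genes (1.92%), a window of *Igf2*, and in 5.29% of all 32851 windows. These are matches of letters in short windows, and binding was not analysed here.

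The 3 libraries held 35351031 to 40057435 counts on genes. At this depth 3 counts, the limit that a count of 0 allows, were 0.0777 to 0.0843 CPM (counts per 1000000 counts on genes, with library totals scaled by the TMM method). This limit covers counting error only. The dissections carried markers of facial neural crest mesenchyme (7 of 7 with 10 counts or more in each library, summed level 1563 to 1690 CPM), and *Dlx2* itself, from all its copies together and with no control library to set it against, was at 206 ± 26.7 CPM (SD, n = 3). The libraries differed in other tissues. The summed level of 9 neuron markers was 273 CPM in replicate 1 against 24.3 and 35.9, that of 7 eye and forebrain markers was 25.0 against 158 and 146, that of 6 pigment cell markers was 2.49 and 12.9 against 98.2 in replicate 3, and that of 5 erythroid markers was 2108, 3950 and 4888. Embryo sex differed too: *Xist* was high in replicate 1 alone, and Y-linked genes were expressed in the others. No marker of these lists was at 0 in all libraries. Epithelium markers summed to 340, 223 and 224 CPM, endothelium markers to 243, 265 and 178, macrophage markers to 19.3, 22.8 and 19.6, skeletal muscle markers to 12.4, 5.96 and 15.6, and maxillary first arch markers to 970, 968 and 1640. Of the 6 first arch markers, 3 were highest in replicate 1 and 3 in replicate 3, and *Barx1* alone was at 332, 409 and 928 CPM. Of the 6 epithelium markers, 4 were highest in replicate 1 and 2 in replicate 3. Replicate 3 also stood apart by transcript length. The median gene under 1 kb of exonic length was 0.81 higher there on the log2 scale than the mean of the other libraries, and the median gene over 8 kb was 0.56 lower (log2 -0.56). What part these differences have in the values of the imprinted genes was not tested. A smooth trend on length and GC content was therefore fitted over all genes, and values without this trend are given for many of the genes.

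Most imprinted genes were expressed in the E10.5 maxillary process. Of the 45 genes, 44 reached 10 counts in each of the libraries, against 28.2% of all 55401 genes listed. *Rasgrf1*, an exchange factor for Ras that is known as a brain gene, was the exception, with 0, 0 and 4 counts. The mean level was at least 100 CPM for 13 genes, 10 to 100 CPM for 17, 1 to 10 CPM for 11 and under 1 CPM for 4 (*Phlda2*, *Slc22a18*, *Ascl2* and *Rasgrf1*). The 45 genes together took 0.905%, 0.778% and 0.587% of all counts on genes in replicates 1, 2 and 3. A small group carried most of this. *Mest*, *Grb10*, *H19*, *Peg10*, *Peg3*, *Nnat* and *Dlk1* held 81.6%, 80.4% and 75.1% of the counts of the 45 genes.

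Per kb of exonic length, which allows levels to be compared between genes, *H19* had the highest mean with 528 CPM per kb, followed by *Nnat* with 421 and *Mest* with 267. The order of these means was not the same in every library. *H19* spanned 502 to 558 CPM per kb, *Nnat* 316 to 598 and *Mest* 94.4 to 383, so that *Nnat* exceeded *H19* in replicate 3 and *Mest* overlapped the genes that follow. Next came *Grb10* (115 CPM per kb), *Peg10* (107), *Dlk1* (95.5) and *Cdkn1c* (76.7), whose order is not fixed by these libraries. Their ranges of 60.4 to 156, 77.9 to 130, 81.3 to 109 and 64.5 to 101 CPM per kb overlapped one another. *Ndn* (45.2 CPM per kb, 36.9 to 51.7) and *Peg3* (40.6, 22.6 to 54.7) followed, in an order that was reversed in replicate 1. *H19* ranked 74 among all genes by level per kb. The length used here joins the exons of all annotated transcripts of a gene, and the order depends on it. Per kb of the longest transcript, *H19* (568), *Nnat* (531) and *Mest* (395) were still highest. *Grb10* then stood at 207, *Dlk1* at 116, *Peg10* at 107 and *Cdkn1c* at 82.3, and *Peg3* (62.2) lay above *Ndn* (45.2).

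**Figure D1:**
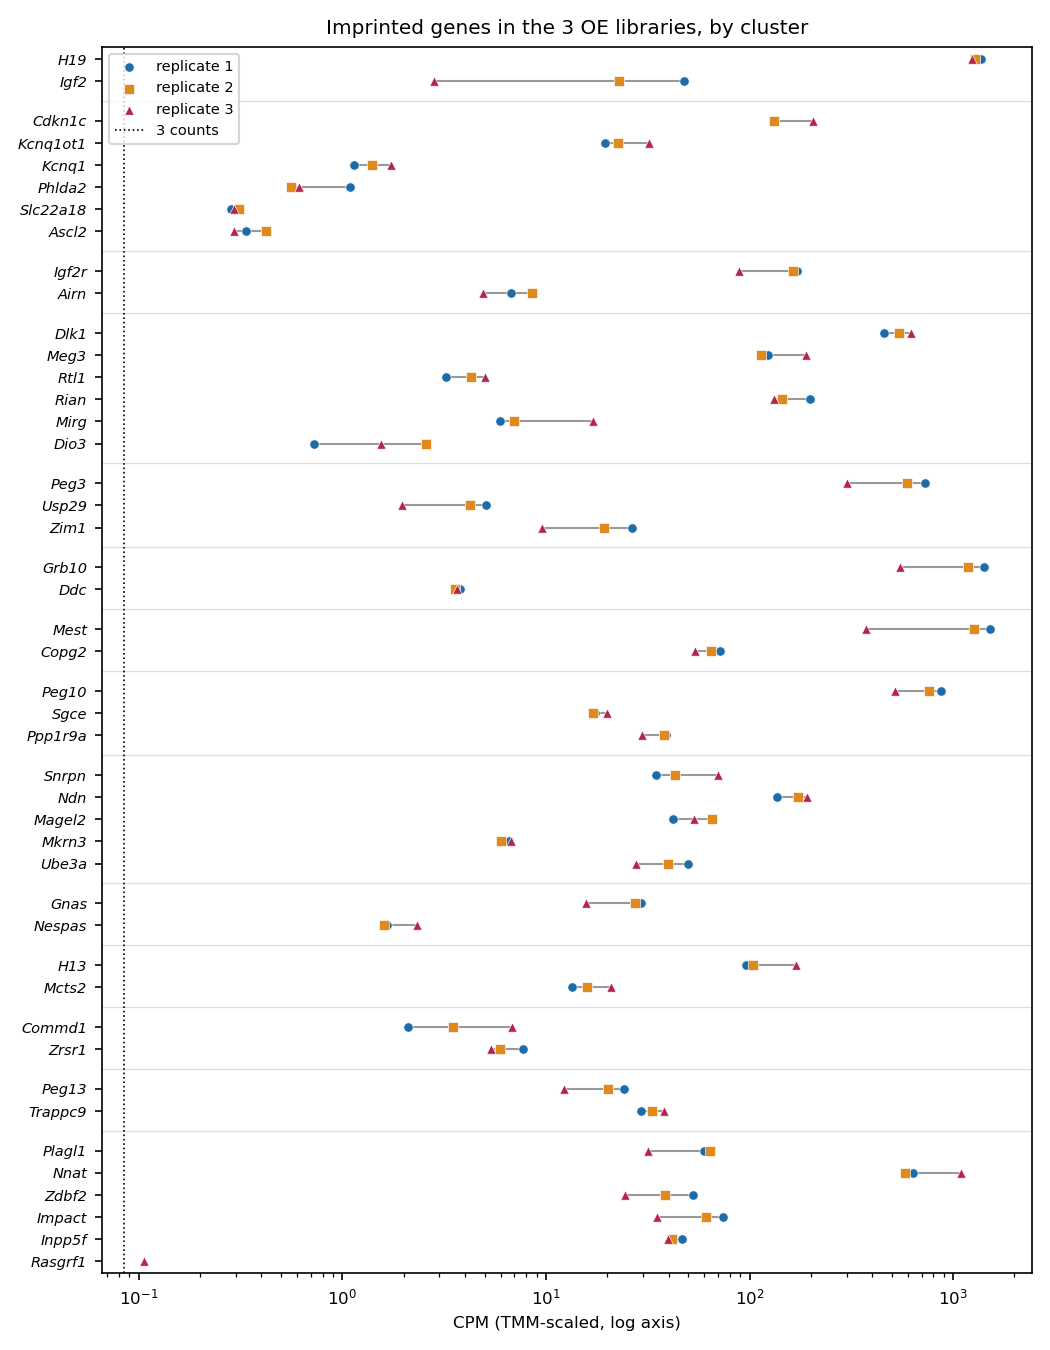
Each row is 1 imprinted gene, grouped by cluster, and the x axis is its TMM-scaled CPM on a log scale, with 1 point for each of the 3 OE libraries and a bar over their range. The dotted line marks 3 counts, and *Rasgrf1*, at 0 in replicates 1 and 2, is drawn for replicate 3 only. *Igf2* has the widest bar, and *H19*, *Ddc* and *Slc22a18* are among the narrowest.

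The variation between the libraries was compared with counting error by a chi-square test for each gene, adjusted by Benjamini-Hochberg over the 17115 genes whose counts averaged 10 or more. The test compares these libraries, not conditions. The markers of sex show that replicate 1 came from other embryos than replicates 2 and 3, and nothing says whether the latter came from separate embryos. Of the 44 imprinted genes tested, 39 varied beyond counting error, and the background was 81.5% of all genes tested. The 5 that did not were *Kcnq1*, *Slc22a18*, *Ascl2*, *Ddc* and *Mkrn3*, with 11 to 255 counts in a library. Of the imprinted genes averaging 1000 counts or more, 23 of 23 varied beyond counting error, against 95.2% of all such genes.

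The highest library exceeded the lowest by at least 2-fold in 13 of the 44 genes, against 34.8% of all genes tested. They were *Igf2*, *Mirg*, *Dio3*, *Peg3*, *Usp29*, *Zim1*, *Grb10*, *Mest*, *Snrpn*, *Commd1*, *Plagl1*, *Zdbf2* and *Impact*. The median ratio of the highest to the lowest library was 1.67 over the imprinted genes and 1.69 over all genes. Without replicate 1 the range was at least 2-fold in 6 genes (background 18.3%), without replicate 2 in 12 (background 31.2%) and without replicate 3 in 2, *Igf2* and *Dio3* (background 7.24%), so that the count fell with the background. After removal of the trend on length and GC content, 11 genes had a 2-fold range (background 22.9%), and *Igf2*, *Mirg*, *Dio3*, *Mest*, *Snrpn* and *Commd1* were in both sets.

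The *H19* and *Igf2* cluster on chromosome 7 holds the imprinted gene of the highest mean level per kb and the one of the widest range. *H19*, a long noncoding RNA made from the maternal copy (chr7:142575529-142578143, GRCm38), had 52989, 45806 and 46504 counts, or 1298 ± 69.9 CPM (SD, n = 3). Its highest library exceeded its lowest by 1.11-fold. This was more than counting error allows for, and the median range was 1.69-fold over all genes. With the length and GC trend removed, however, the range of *H19* was 1.58-fold, beside a median of 1.46-fold, and replicate 3 lay 0.56 below the others (log2 -0.56).

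*Igf2*, the paternally expressed fetal growth factor (chr7:142650766-142666816), had 1843, 810 and 106 counts. The levels were 47.8, 22.8 and 2.81 CPM, so that replicate 1 was 17.0-fold above replicate 3. With the length and GC trend removed, the range was 17.9-fold, and replicate 3 lay at the 0.158 percentile of all genes. These counts are not of the whole *Igf2* mRNA. In GENCODE M21, 62.8% of the exonic bases of *Igf2* and 80.5% of its coding bases (546 of 678) are also exonic bases of *Gm49394*, a gene on the same strand that runs through *Igf2*. *Gm49394* had 0 counts in every library. HTSeq by default leaves a read unassigned when it fits more than 1 gene, and only 2029 exonic bases of *Igf2* are shared with no other gene. Most of these, 1126 bases in an upstream exon, belong to 1 of 9 annotated transcripts, and the long last exon is shared almost whole. By that rule the *Igf2* values above are of upstream exons and short pieces, and neither the level of *Igf2* mRNA nor its change between libraries can be read from them. The neighbouring insulin gene *Ins2* had 1, 0 and 0 counts.

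**Figure D2:**
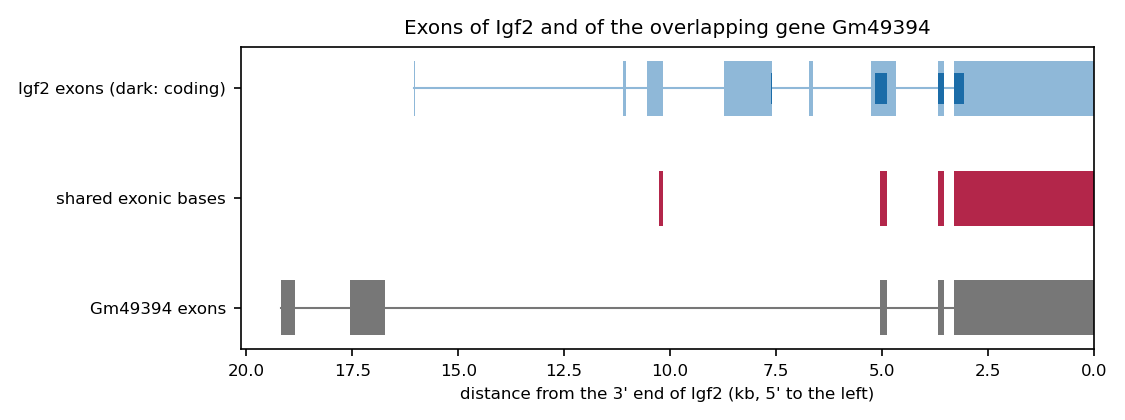
Exons of *Igf2* (light blue, with coding bases in dark blue), exons of *Gm49394* (grey) and the bases of *Igf2* exons shared with another gene (red) against distance from the 3' end of *Igf2* in kb, with the 5' end to the left. The last exon and most coding bases are shared with *Gm49394*, the 98 shared bases near 10 kb are shared with *Igf2os* on the other strand, and 2029 bases remain that belong to *Igf2* alone.

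In the *Kcnq1* cluster, also on chromosome 7, the levels differed widely between neighbours. *Cdkn1c*, the cyclin-dependent kinase inhibitor p57 made from the maternal copy (chr7:143458339-143461050), had 131, 132 and 206 CPM. Replicate 3 was the highest, but with the length and GC trend removed its difference from the others was 0.00 on the log2 scale and the whole range fell to 1.10-fold. Of the coding bases of *Cdkn1c*, 57.9% lie opposite *Gm44732*, so part of its reads may be missing from its count.

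*Kcnq1ot1*, the paternal antisense RNA within *Kcnq1*, had 19.4, 22.7 and 31.9 CPM. Its annotated length of 93092 bases lies at the end of the length trend, where a fitted value is least certain. *Kcnq1*, a potassium channel gene, was at 1.14, 1.40 and 1.73 CPM. Both were highest in replicate 3, as was *Cdkn1c*, and with the trend removed the difference of replicate 3 was 0.15 for *Kcnq1* but 1.31 for *Kcnq1ot1* on the log2 scale. The maternally expressed growth regulator *Phlda2* (42, 20 and 23 counts), the transporter gene *Slc22a18* (11, 11 and 11 counts) and the trophoblast factor *Ascl2* (13, 15 and 11 counts) were near the limit of what these libraries measure. The adjusted p of the chi-square test was 0.0191 for *Phlda2*, 0.983 for *Slc22a18* and 0.658 for *Ascl2*.

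In the *Igf2r* cluster on chromosome 17, both transcripts were lowest in replicate 3. *Igf2r*, the maternally expressed receptor that carries IGF2 protein to lysosomes, had 171, 164 and 89.1 CPM. *Airn*, the paternal noncoding RNA that starts within *Igf2r* and runs against it, had 6.71, 8.57 and 4.88 CPM. With the trend removed, *Igf2r* remained 0.61 lower in replicate 3 (log2 -0.61) and *Airn* 0.44 lower (log2 -0.44).

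In the *Dlk1* and *Dio3* cluster on chromosome 12, the paternally expressed coding genes and the maternally expressed noncoding RNAs were both present. *Dlk1*, which encodes a membrane protein related to Notch ligands, was the most abundant, with 460, 543 and 618 CPM. *Rtl1*, a coding gene derived from a retrotransposon, was at 3.24, 4.30 and 5.02 CPM. *Dio3*, which encodes the deiodinase that inactivates thyroid hormone, was at 28, 92 and 58 counts, a range of 3.56-fold with replicate 2 the highest. With the length and GC trend removed, replicate 3 was 0.30 higher than the others for *Dlk1* and 0.41 higher for *Rtl1* on the log2 scale.

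Of the noncoding RNAs of this cluster, *Rian* changed its place in replicate 3 with the length correction and *Meg3* and *Mirg* did not. *Meg3* had 124, 114 and 190 CPM and *Mirg* had 5.93, 6.97 and 17.0 CPM, both highest in replicate 3. *Rian*, a host of small nucleolar RNAs, had 197, 144 and 132 CPM and was lowest there. *Meg3* and *Rian* are long (18089 and 18234 exonic bases), and genes of such length were lower in replicate 3 in general. With the trend removed, all 3 were higher in replicate 3, by 1.20 for *Meg3*, 0.55 for *Rian* and 1.58 for *Mirg* on the log2 scale. *Mirg* was the only imprinted gene at least 2-fold above both other libraries in replicate 3 (background 8.27%). Its sequence holds the miRNAs with a shared seed printed above. The miRNA genes *Mir675*, *Mir770* and *Mir127*, which overlap exons of *H19*, *Meg3* and *Rtl1*, had 0 counts in all libraries, and *Mir3072*, which overlaps *Mirg*, had 10, 12 and 30 counts.

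The 3 genes of the *Peg3* cluster on chromosome 7 were all highest in replicate 1 and lowest in replicate 3. *Peg3*, a paternally expressed zinc finger gene, had 728, 593 and 301 CPM. *Usp29*, a deubiquitinase gene that starts back to back with *Peg3* in the promoter region printed above, had 5.05, 4.21 and 1.96 CPM. *Zim1*, a zinc finger gene expressed from the maternal copy, had 26.5, 19.2 and 9.61 CPM. The ranges were 2.42-, 2.57- and 2.76-fold. All 3 are long (8086 to 18078 exonic bases), and with the trend removed the ranges were 1.49-, 1.38- and 1.66-fold. Of the coding bases of *Usp29*, 96.8% lie opposite *Zim3*, which had 0 counts, so that its count would be mainly of other exons if the counting ignored strand.

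*Grb10* and *Mest* were the most abundant genes that differed strongly between libraries. *Mest*, a paternally expressed gene of embryonic mesenchyme that encodes a protein of the hydrolase fold family, had 58376, 45310 and 14032 counts. The levels were 1513 and 1273 CPM in replicates 1 and 2 and 372 CPM in replicate 3. The 4.06-fold range became 3.52-fold with the trend removed, and replicate 3 lay 1.71 below the others on the log2 scale (log2 -1.71, the 2.46 percentile of all genes). Among genes averaging 1000 counts or more, *Mest* was the imprinted gene with the widest range both before and after this correction. Of the 7 markers of facial mesenchyme, 3 were highest and 3 were lowest in replicate 3, and their part in the values of *Mest* was not tested.

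*Copg2*, a coat protein gene that overlaps the end of *Mest* on the other strand by 912 bases, had 71.6, 64.9 and 53.9 CPM and a range of 1.33-fold. With the length and GC trend removed, the range of *Copg2* was 1.07-fold and replicate 3 lay 0.08 above the others on the log2 scale, so that it did not share the order of *Mest*. *Grb10*, an adaptor protein that restrains signalling from insulin and IGF receptors, had 54618, 42006 and 20691 counts. The levels were 1415, 1180 and 549 CPM, a 2.58-fold range that became 1.81-fold with the trend removed. *Ddc*, the neighbouring gene for aromatic amino acid decarboxylase, was low and level, with 3.78, 3.57 and 3.64 CPM and an adjusted p of 0.893 in the chi-square test. *Igf2*, *Usp29*, *Grb10* and *Mest* were the 4 imprinted genes at least 2-fold below both other libraries in replicate 3 (background 6.83%).

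In the *Peg10* cluster on chromosome 6, *Peg10*, a gene derived from a retrotransposon and needed for the placenta, had 867, 760 and 519 CPM. *Sgce*, which shares a promoter region with *Peg10* and encodes epsilon-sarcoglycan, had 17.3, 17.0 and 19.9 CPM. *Ppp1r9a*, which encodes neurabin, had 38.8, 37.9 and 29.6 CPM. With the trend removed, *Sgce* was 1.01 higher in replicate 3 on the log2 scale and *Peg10* was 0.24 lower (log2 -0.24).

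The genes of the Prader-Willi and Angelman region on chromosome 7 differed in order between libraries. *Ndn*, which encodes the MAGE protein necdin, was the most abundant with 136, 173 and 191 CPM. *Magel2*, a related gene, had 42.0, 65.1 and 53.1 CPM. *Snrpn*, which encodes a splicing protein, had 34.6, 42.8 and 69.9 CPM, a 2.02-fold range that the trend left at 2.02-fold. These paternally expressed genes were lowest in replicate 1. *Mkrn3*, which encodes a RING finger protein, was at 6.58, 5.98 and 6.77 CPM with an adjusted p of 0.415 in the chi-square test. *Ube3a*, a ubiquitin ligase gene that is imprinted in neurons, had 49.9, 39.8 and 27.7 CPM. The 9 neuron markers summed to 273, 24.3 and 35.9 CPM and so were lowest in replicate 2, and their part in the values of *Ube3a* was not tested. With the length and GC trend removed, the log2 difference of *Ube3a* from the other libraries was -0.07 in replicate 1 and 0.21 in replicate 3. Of the coding bases of *Snrpn*, 36.8% are shared with *Gm38393* on the same strand.

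At the *Gnas* locus on chromosome 2, *Gnas*, which encodes the stimulatory G protein alpha subunit, had 29.4, 27.5 and 15.7 CPM. Its antisense RNA *Nespas* had 1.66, 1.60 and 2.34 CPM. Without the length and GC trend, *Gnas* was 0.82 lower in replicate 3 (log2 -0.82) and *Nespas* 0.37 higher. *Gnas* may be counted only in part. In GENCODE M21, 24.9% of its coding bases lie opposite *Gm20721*, which had 0 counts, and 3 of its annotated transcripts, of 1695, 1716 and 1789 bases, were 84.7%, 85.4% and 80.4% shared with exons of other genes. The level of *Gnas* mRNA cannot be read from these values if the counting ignored strand.

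The retrocopies *Mcts2* and *Zrsr1* lie within the spans of *H13* and *Commd1*. *Mcts2* shares no exonic base with *H13*, whereas *Zrsr1* lies opposite *Commd1* and shares 412 exonic bases with it. *H13*, a signal peptide peptidase gene, had 96.5, 104 and 168 CPM, and *Mcts2* had 13.4, 15.9 and 20.9 CPM. Both were highest in replicate 3, by 0.79 for *H13* and 0.15 for *Mcts2* on the log2 scale with the trend removed. *Commd1* had 2.10, 3.48 and 6.80 CPM and *Zrsr1* had 7.75, 5.93 and 5.36 CPM, which as measured are opposite orders. Without that trend, the range of *Commd1* went from 3.24- to 4.47-fold, while *Zrsr1* was lowest in replicate 2 and lay 0.04 below the other libraries in replicate 3 (log2 -0.04). Of the coding bases of *Commd1*, 31.4% are shared with *Gm28048* on the same strand and 21.7% lie opposite *Zrsr1*. In the sense direction of the annotated transcripts, *Mcts2* and *Zrsr1* shared no stretch of 100 bases with another gene, and their parent genes *Mcts1* and *Zrsr2* were at 14.4 and 10.1 CPM per kb, against 18.3 for *Mcts2* and 1.41 for *Zrsr1*.

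*Peg13*, a noncoding RNA within an intron of *Trappc9*, had 24.3, 20.2 and 12.3 CPM, while *Trappc9*, which encodes a part of a vesicle tethering complex, had 29.4, 33.1 and 37.8 CPM. Host and inner gene ran in opposite order over the libraries, and with the trend removed *Peg13* was 0.80 lower in replicate 3 (log2 -0.80) and *Trappc9* 0.32 higher.

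Among the genes that stand alone, *Nnat*, a small membrane protein gene known from the nervous system, had 637, 577 and 1094 CPM. Replicate 3 was the highest. *Nnat* is short (1829 exonic bases), and with the trend removed its range fell from 1.90- to 1.26-fold, with replicates 1 and 3 nearly level. *Plagl1*, a zinc finger gene that limits growth, had 59.6, 64.1 and 31.6 CPM. *Zdbf2* had 52.6, 38.4 and 24.3 CPM, and *Impact*, a regulator of translation, had 2854, 2178 and 1317 counts. *Inpp5f*, a phosphatase gene, had 1797, 1489 and 1505 counts and a range of 1.17-fold. With the trend removed, the ranges of *Plagl1*, *Zdbf2* and *Impact* fell from 2.03-, 2.16- and 2.12-fold to 1.52-, 1.18- and 1.45-fold.

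**Figure D3:**
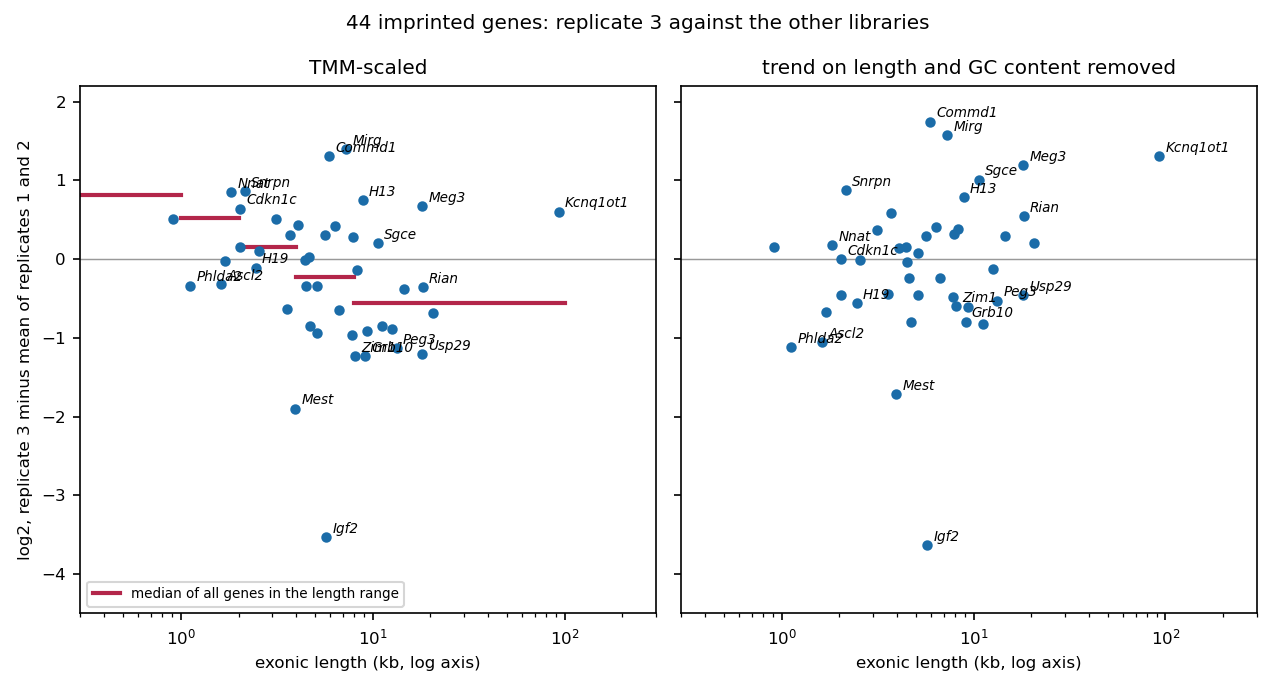
Each point is 1 of 44 imprinted genes, with its exonic length in kb on a log x axis and its log2 level in replicate 3 minus the mean of replicates 1 and 2 on the y axis, as measured (left) and with the trend on length and GC content removed (right). Red lines are medians of all genes in 5 length ranges. *Igf2* and *Mest* lie lowest in both panels, and *Commd1* and *Mirg* highest.

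Read against length, the imprinted genes were split between higher and lower values in replicate 3. As measured, 25 of 44 lay below the other libraries and the median log2 difference was -0.13, against -0.03 for all genes. The imprinted genes are longer than most, with a median of 5690 exonic bases against 3871. With the trend removed, 23 of 44 lay below, and the medians were -0.01 for the imprinted genes and 0.01 for all genes. The sign changed for 10 genes. For these counts of 25, 23 and 10 genes no share over all genes is given, so they describe the imprinted genes only. A difference of at least 0.5 on the log2 scale was left below the other libraries in 12 genes (background 19.5%), among them *Mest*, *Grb10*, *Igf2r*, *Peg3*, *Zim1*, *H19*, *Gnas* and *Peg13*, and above them in 9 genes (background 21.3%), *Kcnq1ot1*, *Meg3*, *Rian*, *Mirg*, *Sgce*, *Snrpn*, *Ndn*, *H13* and *Commd1*. Replicate 3 was the lowest library for 22 genes (background 45.6%) and the highest for 17 (background 43.2%), and replicate 1 was the highest for 21 (background 39.6%). The order of replicate 1 above 2 above 3 was found in 19 genes (background 34.0%).

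Grouped by the parental copy known to be expressed, 12 genes are maternal, 24 paternal and 9 depend on tissue or isoform. The median level was 79.95 CPM for the maternal genes, 24.7 for the paternal and 35.5 for the rest. Per kb of exonic length the medians were closer, at 5.07, 4.27 and 2.44 CPM per kb in this order. The median range was 1.62-fold for the maternal genes, 1.75-fold for the 23 paternal genes tested and 1.33-fold for the rest, beside 1.69-fold for all genes. A range of at least 2-fold was seen in 3 of 12, 9 of 23 and 1 of 9 genes, in this order (background 34.8%), and a difference between the classes was not tested. Both the maternal and the paternal class held genes that were high and genes that were low in replicate 3. With the length and GC trend removed, the median log2 difference of replicate 3 was -0.57 for the maternal genes. It was -0.13 for the paternal genes and 0.29 for the rest, beside 0.01 for all genes, and these differences were not tested.

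The ratio of 2 genes within a library does not depend on the scaling between libraries, and 21 pairs from the same cluster were compared per kb of exonic length. The first gene was higher in every library in 13 pairs, and in 15 with the longest transcript as length. Which gene is named first was a choice, so this count only describes the list of pairs. *Peg3* and *Usp29* had the ratio with the smallest spread, at 7.62 ± 0.06 on the log2 scale (SD, n = 3), although *Peg3* was about 197-fold the more abundant per kb and both had a range of more than 2-fold between the libraries. That spread is below the counting error of the ratio, 0.10 to 0.17 on the log2 scale (1 SE per library, from the counts of both genes), so its rank among the pairs is not resolved. The length used sets the level of a ratio and not its spread between libraries, and with the longest transcript as length the mean log2 ratio of *Peg3* to *Usp29* was 6.98. *Peg3* and *Zim1*, expressed from opposite parental copies, kept a log2 ratio of 4.18 ± 0.10. With the length and GC trend removed from both genes, the SDs of these ratios were 0.07 and 0.10. The ratio of *Cdkn1c* to *Kcnq1ot1* was 8.18 ± 0.11, and that of *Kcnq1ot1* to *Kcnq1*, in whose span it lies, was -0.42 ± 0.10, with a counting error of 0.18 to 0.22 for the latter that exceeds its spread. Both ratios were steady as measured, whereas their SDs were 0.89 and 0.73 with the trend removed. These SDs are uncertain, since *Kcnq1ot1* lies at the end of the length trend. *H13* and *Mcts2* were at -0.43 ± 0.15 (0.34 with the longest transcript as length, so that their order depends on the length used), *Ndn* and *Magel2* at 1.98 ± 0.22 and *Igf2r* and *Airn* at 3.00 ± 0.26 (1.68 with the longest transcript). Without the trend, the SDs of these last ratios were 0.37, 0.49 and 0.19.

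In other pairs the ratio differed more between libraries. *Mest* exceeded *Copg2* by 4.78, 4.67 and 3.16 on the log2 scale in replicates 1, 2 and 3. *Commd1* lay below *Zrsr1* by 2.28 in replicate 1 (log2 -2.28) and by 0.06 in replicate 3 (log2 -0.06). *Meg3* and *Rian* changed order, with log2 ratios of -0.66 and -0.33 in replicates 1 and 2 and 0.53 in replicate 3. So did *Trappc9* and *Peg13*, with -0.47, -0.04 and 0.87. Per kb of exonic length, in neither pair can one gene be called the more abundant. This depends on the length used, since the mean log2 ratio of *Meg3* to *Rian* was -1.015 with the longest transcript as length. Removal of the trend left SDs of 1.04 for *Mest* and *Copg2*, 1.18 for *Commd1* and *Zrsr1*, 0.41 for *Meg3* and *Rian* and 0.69 for *Trappc9* and *Peg13*. The remaining pairs had SDs of 0.28 to 0.95, and the widest, *H19* against *Igf2* with an SD of 2.04, is not interpretable because of the shared exons of *Igf2*. Shared exons also limit the ratio of *Commd1* to *Zrsr1*, since 31.4% of the coding bases of *Commd1* are shared with *Gm28048* on the same strand. That of *Gnas* to *Nespas* is limited in the same way if the counting ignored strand. How much such ratios vary for neighbouring genes that are not imprinted was not tested.

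**Figure D4:**
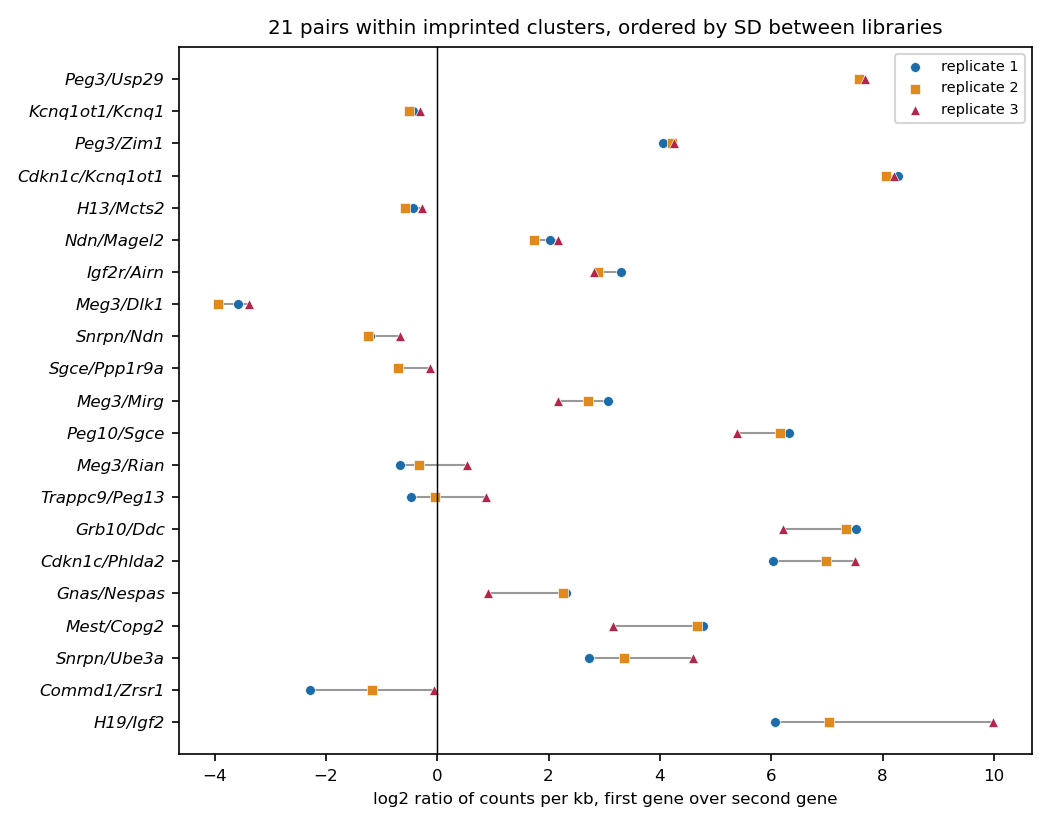
Log2 ratio of counts per kb of exonic length, the first gene over the second, for 21 pairs within imprinted clusters, with 1 point for each OE library and pairs ordered by their SD over the 3 libraries. The points of *Peg3* and *Usp29* nearly coincide, and those of *Commd1* and *Zrsr1* and of *H19* and *Igf2* are spread the most.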

How the data were processed

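Per the labels, poly-T selected RNA of 3 OE maxillary process samples was made into NEBNext Ultra libraries, whose protocol as described does not mark strand. The submitters' processing notes name FastQC, STAR 2.7.3a, HTSeq 0.12.4 and mm10. The authors deposited raw counts of reads per gene, without normalization. The annotation release and strand setting are not given in the sources used here. Of 68 protein-coding genes with at least 80% of their exonic bases shared with the other strand only, 72.1% had at most 3 counts, against 33.0% of 15355 genes that share none. Rows that name no gene held 14.2%, 15.7% and 16.4% of each file and were left out. GENCODE M21 matched 55141 of 55401 identifiers (260 had no match), so the annotation behind the counts differs from it.

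CPM was computed on 36544554, 35351031 and 40057435 counts with TMM factors (edgeR 4.0.16, R 4.3.3). Log2 values used a prior count of 2. Dispersion came from an intercept-only edgeR model, and the trend on exonic length and GC content from mgcv 1.9.3. Steps across genes were tested on simulated data. The chi-square test (threshold 0.05) was run on genes averaging 10 counts or more. Alternatives were DESeq2 1.42.0 size factors, total counts, other count minimums, other gene lengths and each library left out. Unshared bases as gene length, and pair ratios with the trend removed, were chosen after seeing the data. With 1 group, no comparison of conditions could be made.

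The genes, the pairs and all lists were chosen with earlier results of these data known. By rule, every imprinted gene of the set is named, with the parents of the retrocopies and *Dlx2*, and in the lists of other genes the 3 highest per kb and those of the widest and narrowest range among genes averaging 100 counts or more.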

Additional observations from a re-analysis of the deposited data

How the results depend on the processing

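Over 73 results, 389 values were recomputed under alternative settings, and 362 of them stayed within the replicate spread or within 1.5 times the main count. Levels and ratios with 1 library left out were judged against a spread that includes that library, so they could hardly move. The *Igf2* level, 24.4 CPM, was 12.4 without replicate 1 and counted as unchanged beside an SD of 22.5. The count of unchanged values is therefore not a measure of robustness. The number of imprinted genes with a range of at least 2-fold was 13, and 2 to 12 when 1 library was left out. It was 6 without replicate 1 (18.3% of all genes) and 2 without replicate 3 (7.24% of all genes), against 34.8% of all genes with every library. The median biological coefficient of variation was 0.317 and became 0.151 to 0.386 when 1 library was left out, lowest without replicate 3. The median over all genes tested was 0.339. The common value fitted over all genes tested fell likewise, from 0.371 to 0.221 without replicate 3. The median log2 difference of replicate 3 was -0.13, and -0.007 with the length and GC trend removed, -0.24 for genes averaging 100 counts or more and -0.26 with total counts. Scaling by total counts moved the median of all genes from -0.03 to -0.16, so the imprinted genes stayed about as far below it. The cause of these shifts was not tested beyond the settings themselves. Among pair ratios, 13 of 126 values moved beyond the spread between libraries, most of them with the longest transcript as length (*Igf2r* to *Airn* 1.68, *Peg10* to *Sgce* 4.68, *Snrpn* to *Ube3a* 2.55, *Gnas* to *Nespas* 2.85), and 4 reversed: *Meg3* to *Rian* was 0.10 without replicate 1 (-0.50 to 0.10 over libraries left out), *Trappc9* to *Peg13* was -0.25 without replicate 3 (-0.25 to 0.42), and with the longest transcript as length *Sgce* to *Ppp1r9a* was 0.15 and *H13* to *Mcts2* was 0.34. The spread of pair ratios with the trend removed, chosen after seeing the data, is given beside the pairs. The lowest library changed with total counts for *Cdkn1c*, *Slc22a18* and *Ddc* and with DESeq2 size factors for *Cdkn1c*. No paired analysis was possible because all libraries belong to 1 group. With 3 libraries, a difference between 1 library and the others has no replicate.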

Other observations

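Outside the 45 genes, a list of 41 other genes reported as imprinted in the mouse, some of them in the placenta only, was examined in the same way. Of these, 31 reached 10 counts in each library (background 28.2% of all genes listed). Of 31 tested, 28 varied beyond counting error (background 81.5% of all genes tested) and 15 had a range of at least 2-fold (background 34.8%). The highest per kb was *Nap1l4*, a histone chaperone gene at the edge of the *Kcnq1* cluster, with 117 CPM per kb and 14521, 13597 and 12301 counts. It also had the narrowest range among genes of this list averaging 100 counts or more, at 1.17-fold. *Tssc4* of the same cluster followed with 50.5 CPM per kb and had 58.9, 72.7 and 148 CPM. *Casd1*, beside *Peg10*, had 176, 162 and 85.8 CPM. Among genes of this list averaging 100 counts or more, *Th*, the tyrosine hydroxylase gene, had the widest range, with 264, 102 and 101 counts. *Snurf*, *Kcnk9*, *Zim3* and *Zfp264* were at 0 counts in all libraries. *Snurf* shares 216 exonic bases with *Snrpn* on the same strand, and *Zim3* shares 2582 with *Usp29* on the other. Reads on these bases may have been left unassigned.

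A list of 15 genes for proteins that set, keep or read DNA methylation and silent chromatin was examined too. Of these, 13 reached 10 counts in each library (background 28.2% of all genes listed). Of 13 tested, 12 varied beyond counting error (81.5% of all genes tested) and 2 had a range of at least 2-fold (34.8%). *Dnmt3l* and *Ctcfl*, known from germ cells and named here because they fell short, had 5, 1 and 4 and 0, 2 and 0 counts. *Trim28*, the corepressor recruited by imprint-binding zinc finger proteins, was the highest per kb with 1401 ± 256 CPM (SD, n = 3), followed by *Uhrf1* with 439 ± 69.2 and *Ehmt2* with 462 ± 99.8. Among genes averaging 100 counts or more, *Dnmt3a* had the narrowest range, 203, 202 and 197 CPM, and *Dnmt3b* the widest, 75.3, 66.1 and 34.5 CPM. Of 9 genes of the IGF axis, 8 were tested, 8 varied beyond counting error (background 81.5%) and 4 had a range of at least 2-fold (background 34.8%). The highest per kb were *Igf2bp2*, *Igf2bp1* and *Igf2bp3*, which encode proteins that bind *Igf2* mRNA. *Igf2bp3* had the widest range, with 184, 138 and 37.5 CPM (4.90-fold), and *Igf2bp1* the narrowest (1.42-fold). *Igf2bp3* and *Mest* shared the order of the libraries, which 34.0% of all genes tested also had.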
